A study of Mus musculus with 3 samples.

Results

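The matrix metalloproteases and their inhibitors are described here by 10 listed genes, all of them present among the 54532 genes of each deposited file: Mmp2, Mmp3, Mmp9, Mmp11, Mmp13, Mmp14, Timp1, Timp2, Timp3 and Adamts1. RNA came from cells of the dorsal dura mater, the tough outer covering of the brain, in mice inoculated with 4T1-DM cells (4T1 is a mouse mammary carcinoma line). By their label the cells lacked CD45, a leukocyte surface protein, and carried CD31 and podoplanin, a combination used for lymphatic endothelium. Mice of all 3 groups had been inoculated 12 days earlier, as a model of dural metastasis, and received PBS, ZOL or ZOL+Ang2. The labels leave the treatment names unexpanded and give no dose, strain or age. Each group was 1 library made from a pool of 6 mice, so no test was possible, and every difference below is between 3 libraries with no estimate of the spread between animals.

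Matrix metalloproteases (MMPs) are zinc enzymes that cut collagens, fibronectin, proteoglycans and other proteins around cells. Most are secreted as inactive proenzymes and must be cleaved to act. Tissue inhibitors of metalloproteases (TIMPs) bind the active site and block it. In vessels and in tumour stroma these enzymes open basement membrane and release matrix-bound growth factors, and their net activity depends on enzyme, activator and inhibitor together. RNA levels show none of the cleavage steps.

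The 3 libraries differed in depth and in make-up. The reads recovered from the deposited values came to 1675532 after PBS, 16586760 after ZOL and 9204901 after ZOL+Ang2. In PBS, 1 gene model, Gm10800, took 16.5% of reads and mitochondrially encoded genes took 12.1%, against at most 2.91% and 1.52% in the other libraries. Chemoreceptor genes took 3.02% of PBS reads and at most 0.157% elsewhere. Among genes at 100 CPM or more in both ZOL and ZOL+Ang2, 88 of 1384 (6.36%) had no read in PBS, so a value of 0 after PBS does not show that a gene was silent. CPM here are counts of reads relative to the library total, scaled with TMM factors. Of the 8 lymphatic endothelial markers, Lyve1 had 0 reads in each library, and Prox1, the transcription factor that sets lymphatic identity, had 2 reads after PBS and 0 after ZOL and ZOL+Ang2. Others on the list were present: Flt4 (the receptor VEGFR-3) at 0.538, 70.9 and 23.8 CPM, Mmrn1 at 155, 11.5 and 12.0, Reln at 99.6, 8.60 and 7.87, and Ccl21a at 0, 11.1 and 3.88. Pecam1, which encodes CD31, stood at 1.08 CPM after PBS, 475 after ZOL and 177 after ZOL+Ang2. Ptprc, which encodes CD45, had reads throughout, at 155.5, 25.1 and 76.1 CPM, and Pdpn (podoplanin) stood at 18.8, 67.5 and 171 CPM.

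Of the 10 genes, 6 were highest in ZOL+Ang2, 3 after ZOL (Mmp9, Timp2 and Adamts1) and 1 after PBS (Timp3). Of the 6 MMP genes, 5 were highest in ZOL+Ang2. How many of all genes were highest in each library was not counted, so these counts have no background beside them. Between ZOL+Ang2 and ZOL, Mmp14 (140.4 and 129 CPM) and Timp2 (218 and 235 CPM) were near level. The 10 genes summed to 357 CPM after PBS, 1265 after ZOL and 2809 after ZOL+Ang2. All 10 passed the filter of a mean of 10 CPM over the libraries, but Mmp2 and Mmp11 passed only through ZOL+Ang2 and therefore had to be higher there.

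**Figure D1:**
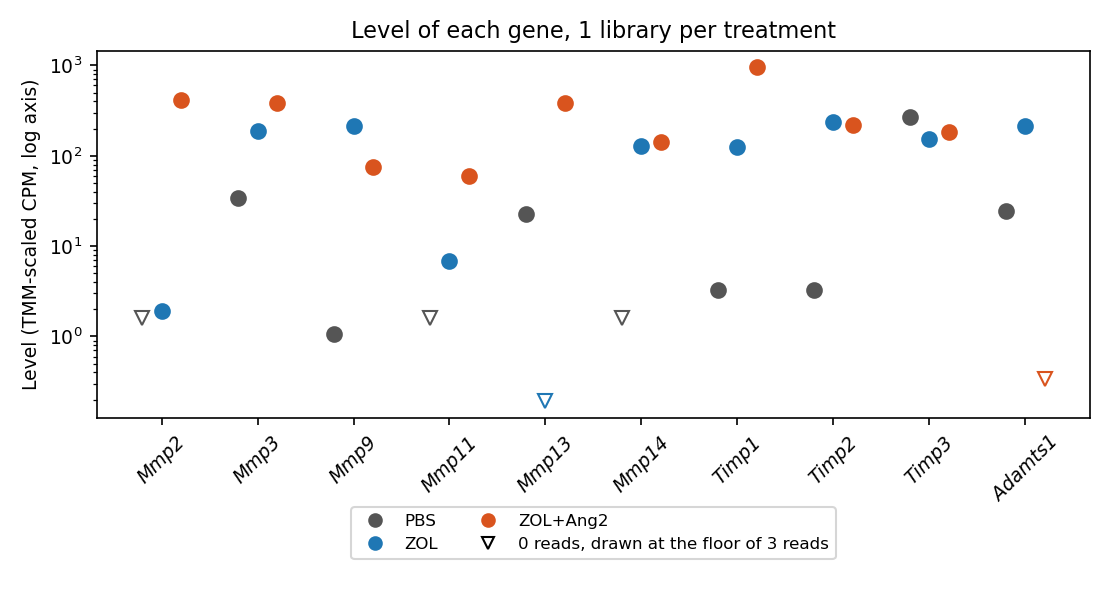
Level of the 10 genes in TMM-scaled CPM (vertical log axis) in the PBS, ZOL and ZOL+Ang2 libraries, 1 point per library and no error bars because each group was 1 library. Open triangles mark 0 reads, drawn at the floor of 3 reads of that library (1.61, 0.191 and 0.342 CPM respectively). Mmp2 and Mmp13 were near or at 0 in ZOL and above 380 CPM in ZOL+Ang2, whereas Adamts1 stood at 213 CPM in ZOL without a read in ZOL+Ang2.

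The gelatinases cut denatured collagen and the collagen of basement membranes. Mmp2 (gelatinase A; ENSMUSG00000031740, chromosome 8, 92827291 to 92853420, mm10) had 0 reads after PBS, 30 after ZOL and 3660 after ZOL+Ang2, which is 0, 1.91 and 417 CPM. It was the gene of this set with the largest measured ratio between ZOL+Ang2 and ZOL, 218-fold higher (95% counting interval 153 to 324), apart from genes with 0 reads on one side. Against the floor of 3 reads in PBS it was at least 259-fold higher in ZOL+Ang2 and at least 1.18-fold higher in ZOL. Mmp9 (gelatinase B; ENSMUSG00000017737, chromosome 2, 164940780 to 164955850), which neutrophils store and other cells make on stimulation, went the other way. It stood at 1.08 CPM after PBS (2 reads), 213 after ZOL and 74.8 after ZOL+Ang2. Mmp9 was thus 2.85-fold lower in ZOL+Ang2 than in ZOL (2.62 to 3.10), and 198-fold higher in ZOL than in PBS with a wide counting interval (54.8 to 1636). The gelatinases therefore traded places: per length Mmp9 stood at 39.9 RPKM and Mmp2 at 0.376 after ZOL, and Mmp9 at 15.8 and Mmp2 at 92.6 after ZOL+Ang2.

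Stromelysin-1 cuts proteoglycans and fibronectin and also activates other proMMPs. Mmp3 (stromelysin-1; ENSMUSG00000043613, chromosome 9, 7445822 to 7455975) was the most abundant MMP per length in each library, at 31.7, 68.7 and 158 RPKM after PBS, ZOL and ZOL+Ang2. Its CPM were 34.4, 187 and 382. Mmp3 was 5.42-fold higher in ZOL than in PBS (4.23 to 7.05) and 2.05-fold higher in ZOL+Ang2 than in ZOL (1.95 to 2.15), just past the 2-fold line. Mmp11 (stromelysin-3; ENSMUSG00000000901, chromosome 10, 75923222 to 75936496), known from the stroma of carcinomas and activated inside the cell by furin, had 0 reads after PBS, 6.88 CPM after ZOL and 60.2 after ZOL+Ang2. It was 8.75-fold higher in ZOL+Ang2 than in ZOL (7.10 to 10.9). Mmp11 overlaps Chchd10 on the other strand, which had 14.5, 6.75 and 0 CPM in that order, and no source used here gives the strand setting of the counting, so the small ZOL value of Mmp11 is uncertain.

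The collagenase Mmp13 (ENSMUSG00000050578, chromosome 9, 7272514 to 7283331) is the main enzyme of mice that cuts native fibrillar collagen, and cartilage and bone cells make much of it. It had 42 reads after PBS, 0 after ZOL and 3358 after ZOL+Ang2 (22.6, 0 and 383 CPM). Against the floor of 3 reads in ZOL it was at least 2004-fold higher in ZOL+Ang2 and at least 118-fold higher in PBS. A gap between ZOL+Ang2 and ZOL was rare: of 2027 genes at 100 CPM or more in ZOL+Ang2, 13 (0.641%) had no read in ZOL. Between PBS and ZOL it was more frequent: of 1390 genes at 100 CPM or more in PBS, 130 (9.35%) had no read in ZOL. Mmp13 itself was below 100 CPM in PBS. Mmp13 was also 16.9-fold higher in ZOL+Ang2 than in PBS (12.5 to 23.6).

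Mmp14 (MT1-MMP; ENSMUSG00000000957, chromosome 14, 54431612 to 54445364) sits in the cell membrane, cuts fibrillar collagen there and activates proMMP2 together with TIMP2. It had 0 reads after PBS, 129 CPM after ZOL and 140.4 after ZOL+Ang2, and was at least 79.8-fold higher in ZOL than the floor in PBS. Between ZOL+Ang2 and ZOL it stayed within 2-fold (ratio 1.09, 1.01 to 1.17). The activator and its TIMP2 partner were therefore near level in these libraries while Mmp2 itself differed 218-fold. Per length, Mmp14 came to 0.358 times Timp2 after ZOL and 0.421 times after ZOL+Ang2, and Mmp2 to 0.00939 and 2.21 times Timp2.

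**Figure D2:**
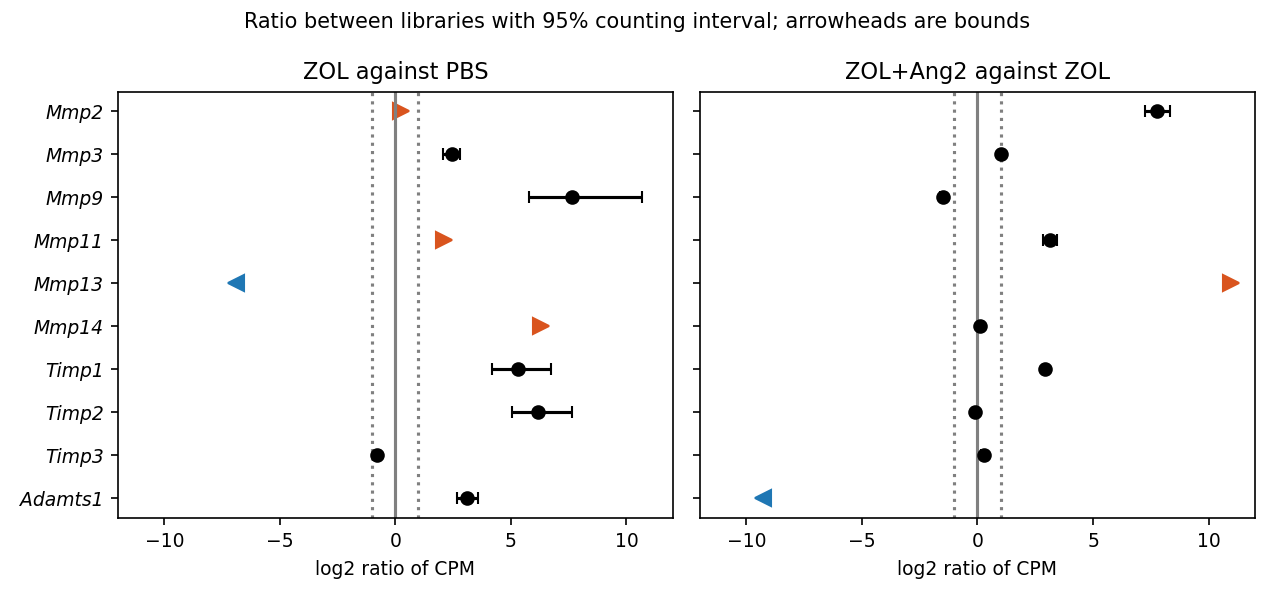
Log2 ratio of CPM for each of the 10 genes in ZOL against PBS (left) and ZOL+Ang2 against ZOL (right), with 1 library per group. Points carry exact 95% counting intervals, arrowheads are bounds against a floor of 3 reads where a library had 0 reads, and dotted lines mark 2-fold; in the right panel Mmp14, Timp2 and Timp3 lie between the dotted lines.

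The inhibitors did not share a pattern. Timp1 (ENSMUSG00000001131, chromosome X, 20870166 to 20874735), an inhibitor of most secreted MMPs that is induced in injury and inflammation, stood at 3.23 CPM after PBS (6 reads), 127 after ZOL and 950.3 after ZOL+Ang2. It was 7.50-fold higher in ZOL+Ang2 than in ZOL (7.15 to 7.88) and 39.2-fold higher in ZOL than in PBS (18.0 to 107). With 800.2 RPKM after ZOL+Ang2 it ranked 41st of all genes there, while it ranked 423rd in ZOL and 8653rd in PBS.

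Timp2 (ENSMUSG00000017466, chromosome 11, 118301069 to 118355740), which both inhibits MMPs and helps MMP14 to activate proMMP2, stood at 3.23, 235 and 218 CPM. It was 72.9-fold higher in ZOL than in PBS (33.4 to 199) and within 2-fold between ZOL+Ang2 and ZOL (ratio 0.926, 0.876 to 0.979). Timp3 (ENSMUSG00000020044, chromosome 10, 86300372 to 86349506), which binds to matrix and also inhibits ADAM and ADAMTS enzymes, stood at 267, 153 and 183 CPM after PBS, ZOL and ZOL+Ang2. It was the only one of the 10 with its highest value in PBS and lay within 2-fold in each of the 3 comparisons, although with median-of-ratios scaling its log2 fold of ZOL against PBS was -1.64 in place of -0.79. Timp1 and Timp3 overlap Syn1 and Syn3 on the opposite strand, and these synapsin genes reached at most 7.53 and 12.4 CPM, both in PBS.

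Adamts1 (ENSMUSG00000022893, chromosome 16, 85793827 to 85803113) is a secreted protease with thrombospondin repeats that cuts versican and aggrecan and restrains vessel growth. It had 46 reads after PBS, 3344 after ZOL and 0 after ZOL+Ang2 (24.8, 213 and 0 CPM). It was 8.61-fold higher in ZOL than in PBS (6.44 to 11.8) and at least 623-fold lower in ZOL+Ang2 than in ZOL. Of 2099 genes at 100 CPM or more in ZOL, 33 (1.57%) had no read in ZOL+Ang2, and Adamts1 was among them. Gaps from PBS were more frequent: of 1390 genes at 100 CPM or more in PBS, 188 (13.5%) had no read in ZOL+Ang2. Adamts1 and Mmp13 were thus at opposite ends of ZOL+Ang2 against ZOL, each abundant in one library and without a read in the other.

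The promoters of 4 genes are shown: Mmp13, Mmp3 and Timp1, which were highest in ZOL+Ang2, and Adamts1, which had no read there. Mmp11 and Mmp14 were also highest in ZOL+Ang2 and are not shown, so the 4 are a selection. Each is the 250 bases before the RefSeq start on GRCm38.p6, 5′ to 3′ on the gene's strand, and capitals mark a match to TGANTCA, the recognition sequence of AP-1 (a dimer of FOS and JUN proteins). The regions are chr9:7272264-7272513 (plus strand) for Mmp13, chr9:7445572-7445821 (plus) for Mmp3, chrX:20869916-20870165 (plus) for Timp1 and chr16:85803114-85803363 (minus) for Adamts1.
Mmp13: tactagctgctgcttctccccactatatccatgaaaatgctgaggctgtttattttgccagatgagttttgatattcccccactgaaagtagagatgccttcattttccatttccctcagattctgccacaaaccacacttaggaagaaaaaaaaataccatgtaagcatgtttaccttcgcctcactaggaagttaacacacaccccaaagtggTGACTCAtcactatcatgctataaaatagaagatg
Mmp3: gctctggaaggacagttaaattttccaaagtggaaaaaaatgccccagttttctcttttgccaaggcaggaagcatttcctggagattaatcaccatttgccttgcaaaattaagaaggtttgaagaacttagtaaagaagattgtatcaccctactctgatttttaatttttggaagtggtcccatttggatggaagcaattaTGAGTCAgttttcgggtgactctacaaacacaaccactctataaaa
Timp1: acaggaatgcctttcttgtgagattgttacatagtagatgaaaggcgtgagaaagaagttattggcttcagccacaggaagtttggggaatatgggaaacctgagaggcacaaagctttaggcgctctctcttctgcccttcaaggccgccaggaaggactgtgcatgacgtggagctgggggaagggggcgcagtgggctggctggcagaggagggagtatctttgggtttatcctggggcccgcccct
Adamts1: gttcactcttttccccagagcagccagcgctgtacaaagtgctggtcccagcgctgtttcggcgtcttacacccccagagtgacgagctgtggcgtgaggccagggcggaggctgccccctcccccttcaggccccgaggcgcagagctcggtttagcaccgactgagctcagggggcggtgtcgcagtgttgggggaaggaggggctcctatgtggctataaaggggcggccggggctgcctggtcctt
RefSeq promoters were matched for 8 of the 10 genes (Mmp2 and Mmp9 had no entry). The windows of Mmp11 (chr10:75932503-75932752, minus) and Timp2 (chr11:118355412-118355661, minus) lay inside the genes, whose GENCODE starts are at 75936496 and 118355740. TGANTCA reads the same on both strands. It occurred in 2 of these 8 windows, Mmp13 as TGACTCA (35 to 29 bases before the start) and Mmp3 as TGAGTCA (46 to 40 bases before it), and in 6.75% of all 32851 promoter windows of that length. Of those 8 windows, TATAAA on either strand occurred in 3 (Mmp13, Mmp3 and Adamts1) and in 12.4% of all windows. GGGCGG on either strand, the GC box, occurred in 6 (Mmp11, Mmp14, Timp1, Timp2, Timp3 and Adamts1) and in 32.7% of all. No window held both an AP-1 and a GC box match, and none of the AP-1 matches overlapped a TATAAA. The matches describe these letters only.

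Mmp13 and Mmp3 also lie in the same gene cluster. On chromosome 9 the annotation places 10 Mmp genes within 427 kb. It classes 9 genes of this interval as protein-coding, all of them Mmp genes, and Mmp1a is not among these. In ZOL+Ang2, Mmp13 at 383 CPM and Mmp3 at 382 CPM were alone above 30 CPM in the cluster, and the next was Mmp20, the enamel protease, at 8.10. In ZOL, Mmp3 was the one gene above 30 CPM, and 6 of the 10 genes, Mmp13 among them, had 0 reads. In PBS the cluster held low values on several genes: Mmp3 at 34.4 CPM, the macrophage elastase Mmp12 at 29.1, Mmp20 at 26.9, Mmp13 at 22.6 and the neutrophil collagenase Mmp8 at 11.8. Mmp12 and Mmp1b overlap on opposite strands, so reads of the 8 CPM or fewer on Mmp1b are uncertain.

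**Figure D3:**
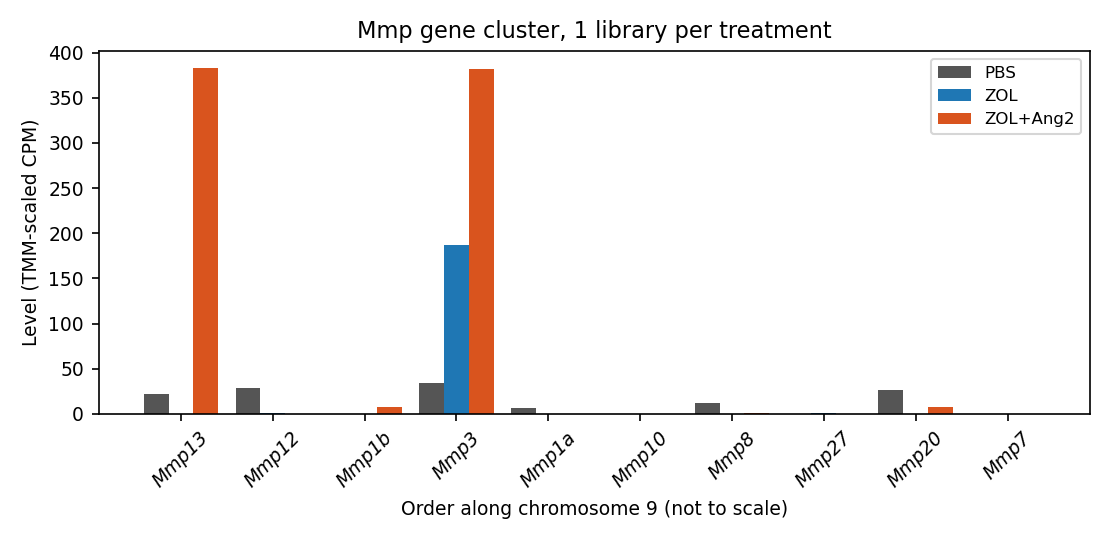
Level in TMM-scaled CPM (vertical axis from 0) of the 10 Mmp genes on chromosome 9 in genomic order, in the PBS, ZOL and ZOL+Ang2 libraries, 1 bar per library. Mmp3 was present in each library and Mmp13 reached the same height in ZOL+Ang2 alone, with 0 reads in ZOL.

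Per length, the balance of inhibitor to protease RNA was compared within each library, since the deposited RPKM of different libraries rest on totals that are not defined. Timp1, Timp2 and Timp3 summed to 1.34 times the 6 MMP genes in PBS, 1.18 times after ZOL and 2.11 times after ZOL+Ang2. The make-up of the sums differed more than their ratio. Timp3 made up 88.0% of TIMP RPKM in PBS, 8.47% after ZOL and 1.96% after ZOL+Ang2, and Timp1 9.75%, 64.3% and 93.2%. Among MMPs, Mmp3 and Mmp13 made up 68.6% and 30.3% after PBS. Mmp3, Mmp9 and Mmp14 made up 55.0%, 32.0% and 11.5% after ZOL. Mmp3, Mmp13 and Mmp2 made up 38.9%, 26.3% and 22.7% after ZOL+Ang2. The order of the libraries rested on these genes: without Timp1 and Mmp3, the most abundant of each kind in ZOL+Ang2, the ratio was 3.84 after PBS, 0.932 after ZOL and 0.235 after ZOL+Ang2. Timp1, whose product binds proMMP9, was 12.0 times Mmp9 per length in PBS, where they had 6 and 2 reads, 2.37 times after ZOL and 50.6 times after ZOL+Ang2. Over all TIMP and Mmp genes of the wider lists the TIMP to MMP ratio was 0.984, 1.15 and 1.96, which puts PBS below ZOL.

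**Figure D4:**
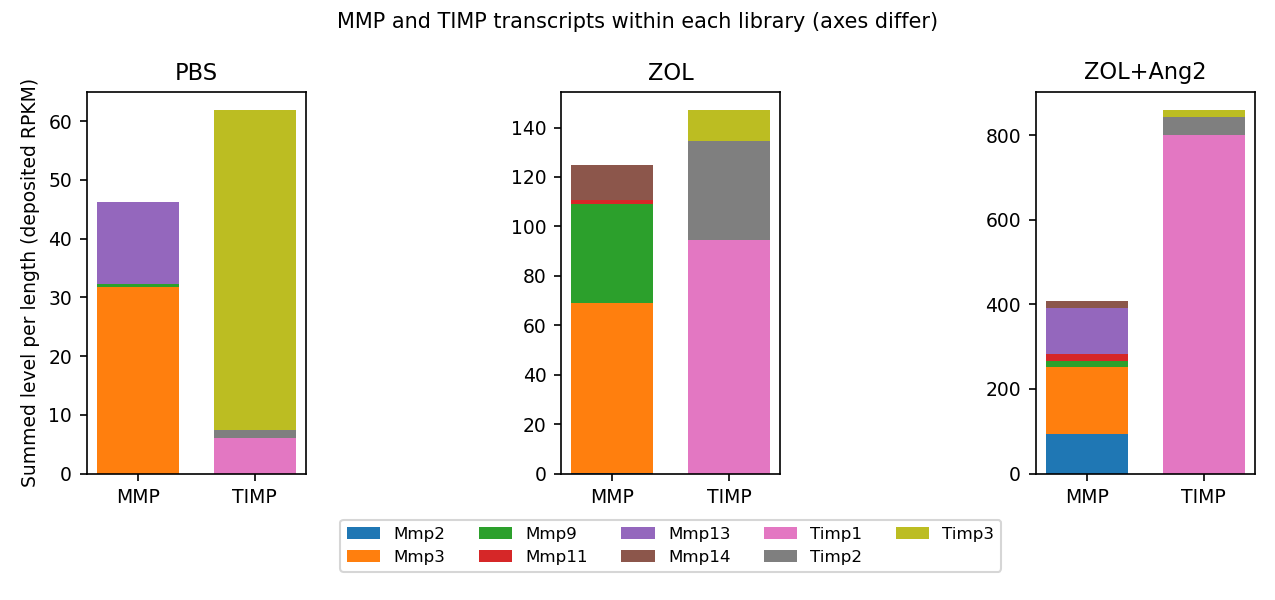
Deposited RPKM of the 6 MMP and 3 TIMP genes, stacked by gene, in the PBS, ZOL and ZOL+Ang2 libraries; each panel has its own axis from 0, and only bars within a panel are comparable. The TIMP bar was mostly Timp3 in PBS (88.0%) and mostly Timp1 in ZOL+Ang2 (93.2%).

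ZOL against PBS asked how the selected cells differed after ZOL. Of the 10 genes, 7 were at least 2-fold higher in ZOL and 1 lower (Mmp13), with Mmp2 and Timp3 within 2-fold. Among all 10942 genes compared, 49.2% were 2-fold or more higher and 29.4% lower (78.7% in either direction), so a high share of genes past 2-fold was general in this comparison. The median log2 fold was 2.58 for the 10 genes and 0.94 for all genes. The higher genes made up 62.6% of all genes past 2-fold, and 47.3% with median-of-ratios scaling, which moved the median of all genes from 0.94 to -0.17. In that scaling 7 of the 10 genes were still higher and 2 lower, Timp3 being the added one. The PBS values of 6 of the 10 genes rested on fewer than 10 reads.

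ZOL+Ang2 against ZOL asked how they differed when Ang2 was added. Here 5 of the 10 were at least 2-fold higher (Mmp2, Mmp3, Mmp11, Mmp13 and Timp1) and 2 lower (Mmp9 and Adamts1), against 16.2% higher and 24.8% lower of all genes (41.0% in either direction). Mmp2 and Mmp11 passed the filter only through ZOL+Ang2 and had to be higher there, both against ZOL and against PBS. Their part in these counts and medians was therefore set by the filter. The median log2 fold was 0.63 for the 10 genes and -0.02 for all genes. In ZOL+Ang2 against PBS, which shares a library with each of the other comparisons, 8 were higher and 1 lower (Adamts1, at least 72.4-fold), against 44.2% and 33.1% of all genes (77.3% in either direction), and the median log2 fold was 3.76 (4.29 with genes at 0 reads at their bound) against 0.48 for all genes. The counts of the wider lists below are to be read beside these shares of all genes.

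The wider MMP family had 23 listed genes, of which 11 passed the filter, 7 of them through 1 library alone. In ZOL+Ang2 against ZOL, 7 of the 11 were higher and 1 lower (Mmp9), against 16.2% and 24.8% of all genes. The median log2 fold was 1.39 (2.31 with genes at 0 reads at their bound). Beside the genes above, the higher ones were Mmp19, at 2.99 and 34.6 CPM, Mmp20, at 0 and 8.10, and Mmp23, at 0 and 45.3. Mmp19 was 11.5-fold higher (8.47 to 16.0) and Mmp23 at least 237-fold higher. In ZOL against PBS 4 were higher and 4 lower (Mmp12, Mmp13, Mmp16 and Mmp20), with a median of 0.40 (0.24 at the bound), and Mmp12, Mmp16 and Mmp20 passed the filter only through PBS. Relative to all genes that median was -0.54, and it changed sign to 0.33 with median-of-ratios scaling, 0.11 with deposited RPKM and 0.83 with a filter of 50 CPM, so no direction is given for the family in ZOL against PBS. Mmp2, Mmp11, Mmp19 and Mmp23 passed only through ZOL+Ang2 and had to be higher there. Mmp16 (MT3-MMP), a membrane-anchored relative of Mmp14, was highest in PBS, at 69.4 CPM against 13.4 after ZOL and 5.02 after ZOL+Ang2. Mmp7, Mmp21 and Mmp24 had 0 reads in each library.

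The other ADAMTS genes did not share the ZOL-high pattern of Adamts1 in full. Of 19 listed, 7 passed the filter. In ZOL+Ang2 against ZOL 3 were lower (Adamts1, Adamts4 and Adamts10) and 1 higher (Adamts19, at 0 and 6.84 CPM, though 79.1 after PBS), with a median log2 fold of -0.55 (-1.08 at the bound). Adamts4, another aggrecanase, stood at 38.2 CPM after PBS, 37.2 after ZOL and 12.3 after ZOL+Ang2 and was 3.02-fold lower (2.46 to 3.74). Adamts10 stood at 0, 79.8 and 35.0 CPM and was 2.28-fold lower (2.01 to 2.59). Adamts5, a further aggrecanase, missed the filter with 14.0, 14.5 and 0 CPM. Without Adamts1 the other 18 genes summed to 225 CPM after PBS, 181 after ZOL and 118 after ZOL+Ang2, and with it to 249.7, 394 and 118. In ZOL against PBS 3 were higher (Adamts1, Adamts9 and Adamts10) and 3 lower (Adamts6, Adamts18 and Adamts19), but the lower ones passed the filter only through PBS and had to be lower elsewhere.

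Inhibitors beyond the listed TIMPs were mostly highest in PBS. Timp4, which overlaps Syn2 on the opposite strand (26.6 CPM after ZOL and 0 reads elsewhere), stood at 111 CPM after PBS, 18.0 after ZOL and 0 reads after ZOL+Ang2 (at least 52.5-fold lower than in ZOL). The plasma protease inhibitors A2m and Pzp, which trap proteases of many classes, stood at 72.1 and 42.0 CPM after PBS and at 5.25 CPM or less in ZOL and ZOL+Ang2. They are related in sequence, so reads may be shared between them. Of the 6 inhibitor genes compared, 2 were higher (Timp1 and Timp2) and 3 lower in ZOL against PBS, but the lower ones (Timp4, A2m and Pzp) passed the filter only through PBS and had to be lower elsewhere. The list median relative to all genes was -2.50 and turned to 2.55 with a filter of 50 CPM, so it gives no direction for the list. In ZOL+Ang2 against ZOL 2 were higher (Timp1 and A2m) and 1 lower (Timp4), with a median of 0.28 (0.64 at the bound).

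The plasminogen system makes plasmin, which activates several proMMPs. Of its 11 listed genes 7 passed the filter, 5 were higher and none lower in ZOL against PBS (median log2 fold 2.81, against 0.94 for all genes), and 3 were higher and 1 lower in ZOL+Ang2 against ZOL (median 0.40). The urokinase gene Plau stood at 0.538 CPM after PBS (1 read), 74.5 after ZOL and 179 after ZOL+Ang2, and its receptor Plaur at 0, 95.2 and 262. Plau was 2.41-fold higher (2.23 to 2.60) in ZOL+Ang2 than in ZOL and Plaur 2.75-fold higher (2.58 to 2.94). Serpine2, an inhibitor of urokinase and thrombin, was 13.2-fold higher (12.1 to 14.4), at 497 CPM against 37.7. The lower gene was Plgrkt, a plasminogen receptor, at 70.3 and 11.4 CPM. The most abundant member per length in each library was S100a10, a subunit of a plasminogen receptor, at 251 CPM after PBS, 1459 after ZOL and 1335 after ZOL+Ang2. Plat, the tissue plasminogen activator, lay within 2-fold throughout, at 194, 158 and 209.7 CPM.

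Of 12 activators and partners 7 passed the filter, 4 were higher and none lower in ZOL against PBS, with a median log2 fold of 1.07 that lay near the 0.94 of all genes. In ZOL+Ang2 against ZOL 1 was higher (Lrp1, a receptor that clears MMPs, at 126 and 262 CPM) and 2 were lower (median -0.40). Furin, the convertase that activates MMP11 and MMP14, stood at 1.08 CPM after PBS (2 reads), 112 after ZOL and 28.3 after ZOL+Ang2, and was 3.97-fold lower in ZOL+Ang2 than in ZOL (3.48 to 4.56). Cd151, a tetraspanin, was the other lower gene, at 30.9 and 3.42 CPM, but it passed the filter only through ZOL and had to be lower elsewhere. Bsg, an MMP inducer also abundant in barrier endothelium, lay within 2-fold throughout at 1313, 1735 and 1026 CPM. Of 11 ADAM sheddases 7 passed, with 3 higher and 1 lower in ZOL against PBS (median 0.86, also near that of all genes) and 2 higher and 3 lower in ZOL+Ang2 against ZOL (median -0.96). Adam22 passed only through ZOL and Adam23 only through PBS, so each had to be lower in the other libraries. Per length the most abundant were Adam15 after PBS and Adam10, the main sheddase of Notch receptors, in the other libraries, where Adam10 stood at 132 and 65.2 CPM. Adam12 was higher in both comparisons, at 0, 49.7 and 116 CPM, and Adam9 stood at 12.9, 86.6 and 19.3 CPM after PBS, ZOL and ZOL+Ang2.

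Of 20 proteoglycan and glycoprotein substrates 17 passed the filter. In ZOL against PBS 10 were higher and 4 lower (median log2 fold 2.41, 3.52 at the bound), against 49.2% and 29.4% of all genes. In ZOL+Ang2 against ZOL 10 were higher and 2 lower (median 1.29), against 16.2% and 24.8% of all genes. The most abundant per length in each library was Sparc, a collagen-binding glycoprotein, at 817, 1515 and 5245 CPM. Tenascin C (Tnc), a matrix glycoprotein of remodelling tissue, had the same order as Mmp13, with 112 CPM after PBS, 0 reads after ZOL and 639 CPM after ZOL+Ang2. Fibrillin-1 (Fbn1) stood at 73.7, 20.2 and 317 CPM. Versican (Vcan), a substrate of Adamts1, stood at 26.9, 1.02 and 4.79 CPM, but it passed the filter only through PBS and had to be lower elsewhere. Aggrecan (Acan) had 0 reads in each library. Hspg2, the basement membrane proteoglycan perlecan, was lower in ZOL+Ang2 at 57.9 CPM against 140.3 after ZOL, as was Fmod at 0 against 43.8. Fmod passed the filter only through ZOL and had to be lower elsewhere.

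Markers of other cell types moved between the libraries beside these genes. The 12 fibroblast markers summed to 598 CPM after PBS, 1065 after ZOL and 11610 after ZOL+Ang2, where 11 of 12 had reads and Dpt had none. Of the 10 compared in ZOL+Ang2 against ZOL, 7 were higher and 1 lower, against 16.2% and 24.8% of all genes. Pdgfra passed the filter only through ZOL+Ang2 and had to be higher there. Col1a1 stood at 53.5 and 4280 CPM, Col1a2 at 93.9 and 3333, and Col3a1 at 88.9 and 2535. These collagen genes made up most of the fibroblast sum in ZOL+Ang2. Slit2 was the lower marker (22.4 and 4.56 CPM), and Mgp (522 and 570) and Aldh1a2 (43.1 and 27.3) lay within 2-fold. The 12 endothelial markers summed to 4110, 4897 and 1629 CPM, each with reads in each library and with Cldn5, a tight junction gene, the most abundant per length (1772, 1151 and 326 CPM). Of the 12, 10 were lower and none higher in ZOL+Ang2 against ZOL, against 24.8% and 16.2% of all genes. Erg passed the filter only through ZOL and had to be lower elsewhere. The 11 neutrophil markers summed to 364, 40.7 and 798 CPM, with Ly6g, Cxcr2, Camp, Ngp and Retnlg at 0 reads after ZOL, the library where Mmp9 was highest. Of the 6 neutrophil markers compared, 6 were higher in ZOL+Ang2 than in ZOL, against 16.2% of all genes. Ly6g, Camp and Ngp passed the filter only through ZOL+Ang2 and had to be higher there. Below the filter, Ltf stood at 9.94 and 10.1 CPM in ZOL and ZOL+Ang2. Mpo and Elane had 4 and 2 reads after ZOL and 0 after ZOL+Ang2. Whether neutrophils contributed to the Mmp9 values was not tested. The 11 macrophage markers summed to 1038, 257 and 1928 CPM, with Cd68 and Itgam at 0 reads in each library. Csf1r, C1qa and Fcgr1 had 0 reads after ZOL, and C1qb and Fcgr1 had 0 in PBS. Lyz2 stood at 737, 68.8 and 929 CPM, whereas Cd14 was highest after ZOL, at 66.2, 175 and 159. Of the 7 compared, 6 were higher and none lower in ZOL+Ang2 against ZOL, against 16.2% and 24.8% of all genes. C1qb passed the filter only through ZOL+Ang2 and had to be higher there. The 10 carcinoma markers summed to 689, 6195 and 5933 CPM, so their sum was low in PBS and near level between ZOL and ZOL+Ang2. Of the 9 compared, 7 were higher and 1 lower in ZOL against PBS, against 49.2% and 29.4% of all genes. Cdh1 (165, 84.8 and 81.3 CPM) and Elf3 (49.5, 0.446 and 0) were highest in PBS. Between ZOL and ZOL+Ang2 7 lay within 2-fold, whereas Cldn4 (48.4 and 167 CPM) was higher in ZOL+Ang2 and Krt19 (37.3 and 1.03) lower. Elf3 passed the filter only through PBS and Krt19 only through ZOL. The 8 mural markers summed to 2.69, 851 and 378 CPM, with Des at 0 reads in each library and Tagln at 0 after ZOL. Acta2 made up most of the ZOL sum, at 2.69, 670 and 108 CPM, and alone had reads in PBS. Of the 5 compared in ZOL+Ang2 against ZOL, 2 were higher and 2 lower, against 16.2% and 24.8% of all genes. Pdgfrb (21.9 and 126 CPM) and Cspg4 (1.40 and 62.3) were higher, Acta2 and Myh11 (41.6 and 0) lower. Cspg4 passed the filter only through ZOL+Ang2 and Myh11 only through ZOL. The sum gives no direction for the list. The 8 lymphatic markers summed to 275, 170 and 253 CPM. These sums rested on different genes: mostly Mmrn1 and Reln in PBS, and mostly Pdpn in ZOL+Ang2. In pooled cells, fewer cells of a type and less RNA per cell cannot be told apart, and the part of these cell types in the protease values was not tested.

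**Figure D5:**
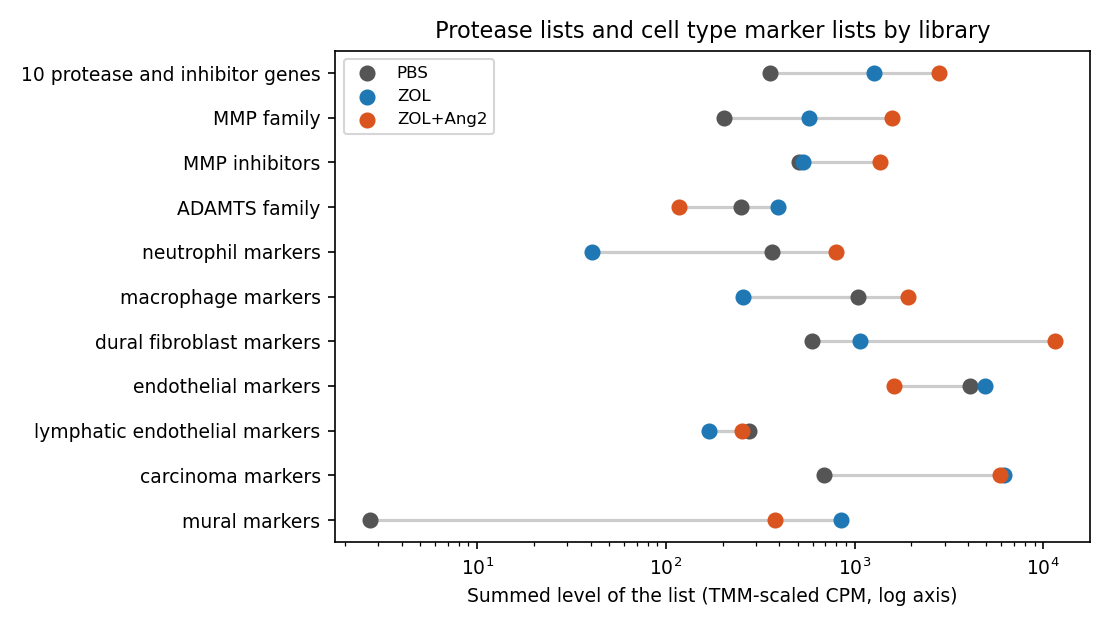
Summed TMM-scaled CPM (horizontal log axis) of the 10 protease and inhibitor genes, 3 wider protease and inhibitor lists and 7 cell type marker lists, 1 point per library. The dural fibroblast list stood at 11610 CPM in ZOL+Ang2 against 1065 in ZOL, and the endothelial list at 1629 against 4897. Most of the fibroblast sum in ZOL+Ang2 was Col1a1, Col1a2 and Col3a1.

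Bone and its resorption were covered by 10 genes because Mmp13 and Mmp9 are also products of bone cells and dura lines the skull. Of these, 6 passed the filter. In ZOL+Ang2 against ZOL 3 were higher and 1 lower (median log2 fold 0.88), against 16.2% and 24.8% of all genes. In ZOL against PBS 4 were higher and 2 lower (median 2.03, 2.69 at the bound), against 49.2% and 29.4% of all genes. Phex passed only through PBS and had to be lower elsewhere. Osteopontin (Spp1), made by bone cells, macrophages and carcinoma cells, stood at 932, 3040 and 7454 CPM, and Alpl, an enzyme of mineralising cells, at 0, 22.8 and 116. The osteocyte gene Dmp1 was the lower one, at 276 CPM after ZOL and 34.6 after ZOL+Ang2. The osteoclast gene Acp5 stayed at or under 1.08 CPM, and cathepsin K (Ctsk), the collagenase of osteoclasts, was highest in PBS at 118 CPM against 14.2 after ZOL and 36.5 after ZOL+Ang2. The osteoblast genes Ibsp and Bglap, both below the filter, stood at 8.10 and 4.22 CPM after ZOL+Ang2 and at 0.127 CPM or less elsewhere. The osteoblast factor Sp7, also below the filter, had the other order, with 8.54 CPM after ZOL and 0 reads in PBS and ZOL+Ang2. Runx2, another listed gene, stood at 0, 20.6 and 31.2 CPM, within 2-fold between ZOL and ZOL+Ang2. Whether bone cells contributed to the Mmp13 values was not tested.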

How the data were processed

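RNA of selected dural cells was measured in 3 libraries, 1 per treatment. The deposited files hold RPKM per gene, computed by the authors over a library total that is not defined; the unit was inferred from the values. The submitters' processing notes name mm10, featureCounts 2.0.6, HISAT2 2.2.1 and fastp. For the annotation release, strand setting and multiply mapped reads: not given in the sources used here.

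Reads were recovered as RPKM times exon length in GENCODE M21, in steps of 1 read. With a tolerance of 0.01, 96.9%, 96.4% and 96.2% of values above 0 came out whole in PBS, ZOL and ZOL+Ang2, and so did all 30 values of the 10 genes; 37 genes had no length. The reads come to 1.50, 0.701 and 0.785 times the totals that the RPKM imply, so they need not be the authors' counts. Even multiples were more frequent in PBS (61.0% of low values), so 1 step may be a single mate, which would make intervals too narrow.

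CPM were computed with TMM factors of 1.11, 0.946 and 0.953. The 10942 genes averaging 10 CPM or more over the libraries were compared by the log2 ratio of CPM plus 5 CPM, which understates differences of low genes. Ratios of named genes use CPM alone, with exact 95% binomial intervals conditional on both libraries' reads. Reads carry no molecular identifiers, so intervals and the floor of 3 reads cover counting error only. With 1 library per group there is no p-value. Past 2-fold is a description. Scaling, filter, prior, the deposited RPKM and totals without gene classes of high share (satellite-type models among them named by hand, not from a repeat annotation) were tried as alternatives. The steps were tested on simulated data. Python 3.11.15, NumPy 2.4.6, pandas 2.3.3 and SciPy 1.17.1 were used.

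The 10 genes and the 16 wider lists were chosen with earlier results of these data known. The naming rule was the 10 genes, the 2 highest and 2 lowest of each list, its most abundant member and marker genes at 0 reads. The text names only some of the genes that this rule gives outside the 10, and these and further members were picked after their values were seen.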

Additional observations from a re-analysis of the deposited data

How the results depend on the processing

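None of the 10 genes past 2-fold changed direction under any alternative, and 6 of 235 values crossed the 2-fold line. Timp3 went from within 2-fold to lower between ZOL and PBS (-1.64 with median-of-ratios scaling, -1.01 with library size alone and -2.04 with deposited RPKM) and between ZOL+Ang2 and PBS (-1.19 and -1.64 with median-of-ratios scaling and deposited RPKM), and Mmp2 became higher in ZOL against PBS with a prior of 1 CPM (1.54). With the settings named for Timp3, the number of the 10 genes that were lower was therefore 2 in place of 1. A filter of 1 CPM compared more genes and a filter of 50 CPM fewer. With 1 CPM, 6403 genes were lower in ZOL against PBS, 2685 higher and 4520 lower in ZOL+Ang2 against ZOL, and 6843 lower in ZOL+Ang2 against PBS (5385 higher and 3221 lower, 1770.0 and 2718, and 4831 and 3625 with 10 CPM). With 50 CPM, 2040.0 genes were higher and 551 lower, 512 higher and 673 lower, and 2002 higher and 637 lower, in the same order. Of 384 list medians relative to all genes under alternatives, 37 changed sign, 11 of them with 50 CPM, 7 with 1 CPM, 7 with median-of-ratios scaling and 5 with deposited RPKM. In 33 of the 37 the reported median lay under 1 from that of all genes, the MMP family in ZOL against PBS among them. The other 4 were, with 50 CPM, the inhibitor list (2.55 for ZOL and 3.33 for ZOL+Ang2, each against PBS), the neutrophil list (-0.049) and the lymphatic list (-1.61), both in ZOL+Ang2 against PBS. With 50 CPM the median of all genes in that comparison was 1.43 in place of 0.48; the cause of these changes was not tested. The TIMP to MMP ratio was 3.84, 0.932 and 0.235 in PBS, ZOL and ZOL+Ang2 without Timp1 and Mmp3, and 0.984, 1.15 and 1.96 over all TIMP and Mmp genes. Using the compared libraries alone for filter and scaling, an alternative chosen after seeing the data, left 8 of the 10 genes to compare in ZOL against PBS. The PBS depth limits each ratio to that library. No paired analysis was possible because each group had 1 library, and for the same reason no library could be left out of a group.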

Other observations

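Reck, a membrane-anchored inhibitor of several MMPs, lay below the filter. It stood at 6.996 CPM after PBS (13 reads), 0.127 after ZOL (2 reads) and 3.99 after ZOL+Ang2 (35 reads). Relative to library size Reck was therefore highest in PBS, on few reads. Fgl2, on the lymphatic marker list, had 34.4 CPM after ZOL+Ang2 and 0 reads in the other libraries.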
